A study of Caenorhabditis elegans with 2 samples.

Results

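Chromatin immunoprecipitation followed by sequencing (ChIP-seq) with an antibody against GFP gave the sites occupied by the zinc finger protein EGRH-3 in whole Caenorhabditis elegans young adults. The peaks described here are those that were called in replicate 1 and not in replicate 2. They were defined by the overlap of the deposited lists: a row of the thresholded list of replicate 1 on a nuclear chromosome was taken when no row of the thresholded list of replicate 2 overlapped it by 1 bp or more. The rule took 1695 of the 2850 nuclear peaks of replicate 1 (59.5%, 95% interval 57.6 to 61.3), and the other 1155 overlapped replicate 2 and are called shared peaks. Replicate 2 held 1439 nuclear peaks.

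Both replicates were of 1 group and no other condition was included. The worms were strain RW12196, which carried a TY1, EGFP and 3xFLAG tag placed by CRISPR at the egrh-3 locus itself, on chromosome IV, so the tagged protein was made under its own regulatory DNA. They were synchronised by starving first-stage larvae after bleaching, grown to 65 h and used whole, so a peak cannot be given to a tissue. Chromatin was sonicated to 200 to 800 bp. The files held peak lists without reads, so the depth of each library is unknown, and no list from worms without the tag was analysed here. Intervals are exact 95% intervals (Clopper-Pearson for shares, conditional for odds ratios) and cover counting error over peaks, which are not replicates of the experiment.

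Proteins of the EGR (early growth response) family bind GC-rich DNA through zinc fingers and recognise a core written here as GTGGGCG or GTGGGTG. In the worm, EGR-type factors and their NAB cofactor MAB-10 are known from the larval-to-adult switch of the epidermis, when larval cuticle genes give way to adult ones. The col genes encode the collagens of the cuticle, and their coding sequence is dominated by repeats of glycine and proline codons, which begin with G or C. In a whole-animal ChIP-seq experiment, peaks can also form at open or GC-rich DNA that the protein does not recognise, and these lists alone cannot separate such peaks from sites of recognition.

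The sequences at 11 of the strongest replicate 1 only summits and at 2 of the strongest shared summits show what both kinds of peak look like. Each holds the summit base and 50 bases on either side, on the forward strand of ce11 (WBcel235, RefSeq genome), and capitals mark the EGR core or its reverse complement. The first 4 lie in coding exons, the next 3 in promoters, then 2 in intergenic DNA and 2 that hold the core, and the last 2 are shared.
col-13 (chrV:10420996-10421096): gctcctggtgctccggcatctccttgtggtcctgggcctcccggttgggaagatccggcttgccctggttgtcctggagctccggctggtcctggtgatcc
col-43 (chrV:8050219-8050319): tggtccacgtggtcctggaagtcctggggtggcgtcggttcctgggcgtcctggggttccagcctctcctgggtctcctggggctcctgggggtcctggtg
tim-1 (chrIII:12245700-12245800): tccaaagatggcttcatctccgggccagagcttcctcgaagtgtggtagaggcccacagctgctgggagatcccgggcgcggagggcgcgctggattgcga
lin-40 (chrV:3707060-3707160): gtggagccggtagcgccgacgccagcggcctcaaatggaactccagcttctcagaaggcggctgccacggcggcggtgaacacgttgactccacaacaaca
lst-2 (chrX:4383662-4383762): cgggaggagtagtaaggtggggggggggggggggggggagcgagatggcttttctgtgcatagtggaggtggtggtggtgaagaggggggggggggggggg
flcn-1 (chrII:6943858-6943958): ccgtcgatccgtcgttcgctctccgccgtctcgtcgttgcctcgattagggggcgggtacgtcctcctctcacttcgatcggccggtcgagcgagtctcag
eat-17 (chrX:16403582-16403682): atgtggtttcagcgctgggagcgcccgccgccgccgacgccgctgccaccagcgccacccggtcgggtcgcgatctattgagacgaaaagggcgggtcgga
intergenic, chromosome II (chrII:2556529-2556629): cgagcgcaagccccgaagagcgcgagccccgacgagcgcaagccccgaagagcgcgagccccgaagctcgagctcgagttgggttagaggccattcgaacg
intergenic, chromosome III (chrIII:8335754-8335854): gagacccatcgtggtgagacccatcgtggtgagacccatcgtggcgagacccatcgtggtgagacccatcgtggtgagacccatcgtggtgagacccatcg
ZK1073.2 intron (chrX:16117774-16117874): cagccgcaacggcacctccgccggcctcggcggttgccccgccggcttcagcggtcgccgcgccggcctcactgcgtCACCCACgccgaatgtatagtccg
col-97 coding exon (chrIII:12993219-12993319): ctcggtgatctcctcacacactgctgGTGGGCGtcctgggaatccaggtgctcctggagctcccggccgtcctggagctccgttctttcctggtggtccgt
shared, intergenic, chromosome II (chrII:2974140-2974240): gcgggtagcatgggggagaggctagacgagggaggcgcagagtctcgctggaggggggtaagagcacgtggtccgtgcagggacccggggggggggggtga
shared, intergenic, chromosome V (chrV:14756746-14756846): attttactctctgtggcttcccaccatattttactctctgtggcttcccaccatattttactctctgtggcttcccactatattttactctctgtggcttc

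The GC content of these 11 replicate 1 only windows ran from 61.4% to 74.3%, against 35.4% for the nuclear genome. Over all windows it ran from 1.98% to 76.2% in replicate 1 only peaks and from 23.8% to 80.2% in shared peaks. The lst-2 window holds a run of 20 G, and the window on chromosome III is a tandem repeat whose central 41 bases occur 74 times in the genome. The other 10 have a single copy of their central 41 bases. Neither shared sequence holds the core. The first of them has a GC content of 71.3%, and the second has 42.6% and a central 41 bases found 119 times. The shared peak that lies between them in signal, not shown, has 78.2%.

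Most replicate 1 only peaks had a signal below the median of the shared peaks. The signal, the authors' measure of a peak's strength against control, had a median of 70.2 in them (range 7.27 to 366, middle 50% from 55.4 to 97.4) and of 126 in the shared peaks (range 7.06 to 4090). These values are a description, since the lists that set the rule were made from the same measurements. The strongest replicate 1 only peak ranked 168 among all 2850. When all peaks were split into 10 equal classes by signal, the replicate 1 only share was 69.1% in the weakest class, 81.1% in class 3, 53.3% in class 8, 32.3% in class 9 and 3.86% in class 10, where signals began at 271. The share fell over the upper classes and was not highest among the weakest peaks. The median of the replicate 1 only peaks lay in class 4, where signals ran from 62.5 to 71.04. The deposited score, which reaches at most 1000, stood at that value in 77.8% of replicate 1 only peaks and in 91.8% of shared peaks.

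**Figure D1:**
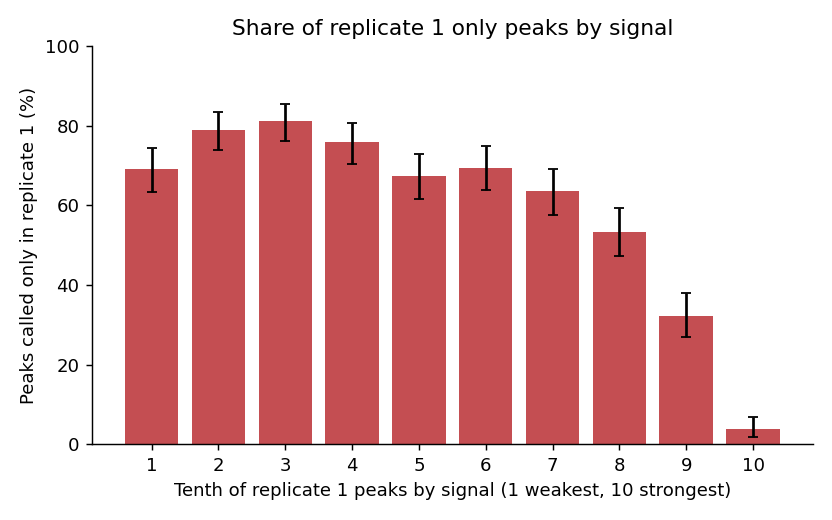
Share of peaks called only in replicate 1 (vertical axis, percent, with exact 95% intervals over peaks) in each of 10 equal classes of the 2850 nuclear peaks of replicate 1 by signal (horizontal axis, weakest to strongest). The share was 81.1% in class 3 and 3.86% in the strongest class.

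Most of these summits lay under a region of the longer ranked list of replicate 2, which was deposited without the threshold. That list held 25577 nuclear regions, and the share of the genome they cover was not measured. A region of it covered the summit of 1303 replicate 1 only peaks (76.9%) and of 1111 shared peaks (96.2%). Its signal there had a median of 30.8 (range 8.27 to 92.2) at replicate 1 only summits and of 76.3 at shared summits. The lowest score of the replicate 2 thresholded list was reached there at 0 of the 1695 replicate 1 only summits and at 1071 shared ones (92.7%). This contrast follows largely from the rule, since a region past that score would mostly be a thresholded row of replicate 2. The lower replicate 2 signals at replicate 1 only summits are likewise favoured by the rule. The ratio of the replicate 1 to the replicate 2 signal had a median of 2.59 at replicate 1 only summits and 1.64 at shared summits, on scales that the files do not say are shared. The 392 without a covering region had a median replicate 1 signal of 64.7, against 72.02 in the covered ones.

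**Figure D2:**
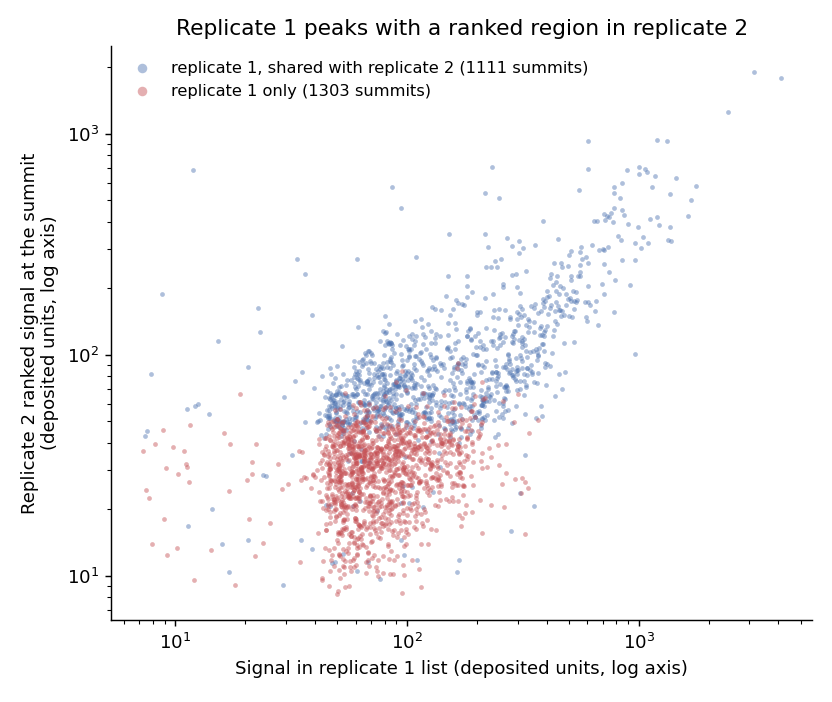
Signal of each replicate 1 peak (horizontal log axis, deposited units) against the signal of the replicate 2 ranked region at its summit (vertical log axis, deposited units), for 1303 replicate 1 only and 1111 shared summits. The replicate 1 only points reach 92.2 on the vertical axis and shared points 1904, a contrast that the rule favours.

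The lists made from both replicates placed part of these peaks among reproducible ones. Of the replicate 1 only peaks, 707 (41.7%) overlapped a row of the conservative list and 1340 (79.1%) a row of the larger list, against 98.4% and 99.2% of shared peaks. The gap from a replicate 1 only peak to the nearest peak of replicate 2 had a median of 19856 bp. It was 10000 bp or more for 1105 (65.2%) and under 200 bp for 17. The gap from randomly placed stretches was not measured, so these values do not show an unusual distance. A shared peak of replicate 1 lay within 1000 bp of 6.08% of the replicate 1 only peaks. The 5 closest to the limit of the rule had gaps of 18 to 76 bp and signals of 91.9 to 119, and the 5 shared peaks with the least overlap were overlapped over 11 to 30 bp and had signals of 38.9 to 66.4.

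The 20 strongest replicate 1 only peaks had signals from 246 to 366. At the top stood an intergenic peak on chromosome II (chrII:2556392-2556769) where replicate 1 had 366 and the replicate 2 ranked list 50.6. The col-13 peak in a coding exon followed (chrV:10420885-10421287), with 352 in replicate 1 and no ranked region over the summit in replicate 2. The lst-2 promoter peak (chrX:4383544-4383913) had 322 in replicate 1 and 15.5 in replicate 2, and lst-2 encodes a negative regulator of epidermal growth factor receptor signalling. At col-43 (chrV:8050044-8050500) the signals were 301.4 and 66.6. Further peaks among the 20 were at tim-1, a homologue of Timeless (268 and 39.7), col-179 (259 and 61.6), flcn-1, the folliculin homologue (256 and 26.1), eat-17, a RabGAP needed for feeding (250 and 31.6), and lin-40, a subunit of the NuRD chromatin complex (246 and 39.1). In every one of these peaks with a covering region the replicate 1 value was above the replicate 2 value, as the rule favours.

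Replicate 1 only summits lay in coding exons more often than shared summits and in promoters less often. Coding exons held 510 of the 1695 (30.1%) and 250 of the 1155 shared summits (21.6%), an odds ratio of 1.56 (1.30 to 1.86; two-sided Fisher's exact test, Benjamini-Hochberg adjusted over 7 classes, adjusted p = 1.89e-06). Promoters, the stretch from 1000 bp before a protein-coding transcript's start to 200 bp past it, held 478 (28.2%) and 441 (38.2%), an odds ratio of 0.636 (0.541 to 0.748; exact adjusted p = 1.91e-07). For comparison, 18.8% of nuclear bases are coding exon and 26.1% promoter under the same order of classes. Introns held 17.9% and 14.8% (odds ratio 1.25, exact adjusted p = 0.0734), and intergenic DNA 19.1% and 19.4% (exact adjusted p = 0.885). Exons of noncoding genes held 61 and 54 summits, 5' UTRs 9 and 11, and 3' UTRs 10 and 4, and none of these classes passed the test. Of the 61, 34 lay in genes annotated ncRNA, 24 in pseudogenes and 4 in tRNA genes, where the 54 shared summits had 31, 13 and 11.

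**Figure D3:**
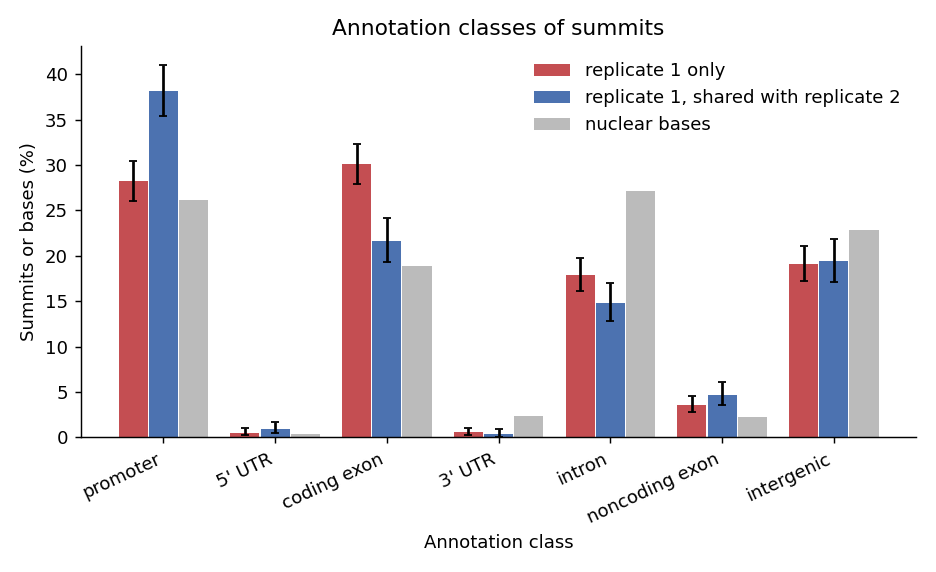
Share of summits (vertical axis, percent, with exact 95% intervals over peaks) in each annotation class for replicate 1 only peaks and shared peaks, beside the share of nuclear bases. Replicate 1 only peaks have 30.1% in coding exons against 21.6%, and 28.2% in promoters against 38.2%.

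The promoter class itself contained much coding sequence. Of the replicate 1 only promoter summits, 164 of 478 (34.3%) also lay in a coding exon, against 75 of 441 (17.01%) of the shared ones, so 40.1% of all replicate 1 only summits and 28.7% of shared summits fell in coding sequence of some gene. Upstream of the nearest 5' end lay 73.6% of the replicate 1 only promoter summits (69.5 to 77.5) and 86.2% of the shared ones (82.6 to 89.2). Within 200 bp of it lay 45.8% and 38.8%, and the median positions over all promoter summits, negative when upstream of the 5' end, were -236.5 and -274 bp. Signal moved with the class: coding exon summits had median signals of 74.8 in replicate 1 only peaks and 187 in shared peaks. Within 4 equal classes of replicate 1 signal, from weakest to strongest, coding exons held 25.6%, 30.1%, 33.3% and 35.7% of replicate 1 only summits and 14.9%, 9.47%, 20.5% and 28.6% of shared summits. The difference in coding exons was larger when stratified by these 4 classes (Mantel-Haenszel odds ratio 2.04, 1.67 to 2.49 by normal approximation) and when summits inside col genes were left out (odds ratio 2.16, exact adjusted p = 5.77e-14). Since the classes come from measurements that set the rule, the stratified value is a description.

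The summits of both kinds were GC-rich against their surroundings. The mean GC content of the window at the summit was 58.1% (SD 8.0, 1695 peaks) in replicate 1 only peaks and 56.8% (SD 10.3, 1155 peaks) in shared peaks, while windows centred 300 bp away had 39.7% and 40.6%. The share of windows above the median of all replicate 1 peaks, 59.4%, was 47.1% and 44.2% and did not pass the test (odds ratio 1.12, 0.964 to 1.31, Fisher's exact p = 0.136). Shared peaks held more of the AT-richer windows: 12.3% of them and 6.84% of replicate 1 only windows were under 45% GC.

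**Figure D4:**
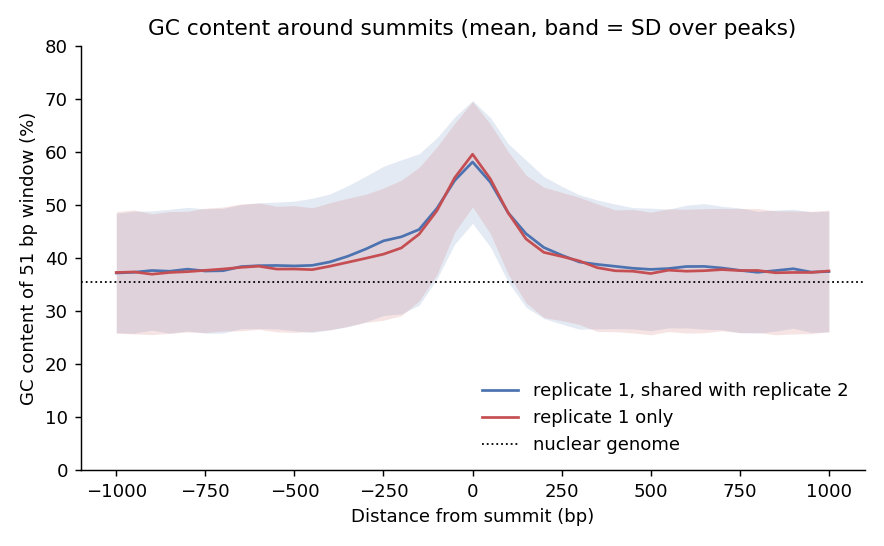
Mean GC content (vertical axis, percent, bands show the SD over peaks) of 51 bp windows by distance from the summit (horizontal axis, bp) for replicate 1 only and shared peaks, with the nuclear genome as a dotted line. Both curves rise at the summit from flanks that are at about the same level in both kinds of peak.

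Within classes of replicate 1 signal the replicate 1 only windows were the more GC-rich, although the test without strata did not pass. GC content rose with signal in both kinds: from the weakest to the strongest of the 4 signal classes its mean was 53.7%, 58.1%, 61.3% and 63.4% in replicate 1 only peaks and 50.97%, 51.8%, 55.9% and 60.9% in shared peaks. The share of windows above the median was 23.9%, 41.2%, 67.4% and 83.6% in the first and 10.9%, 13.2%, 34.1% and 70.5% in the second. Stratified by signal class, the Mantel-Haenszel odds ratio was 3.32 (2.69 to 4.10 by normal approximation), against 1.12 without strata. The signal classes rest on the measurements that set the rule, so the stratified value is a description. How far GC content changed the recovery of fragments in either library was not tested. By class, coding exon windows had a mean of 59.7% in replicate 1 only peaks and 63.3% in shared peaks, and intergenic windows 56.7% and 50.5%.

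**Figure D5:**
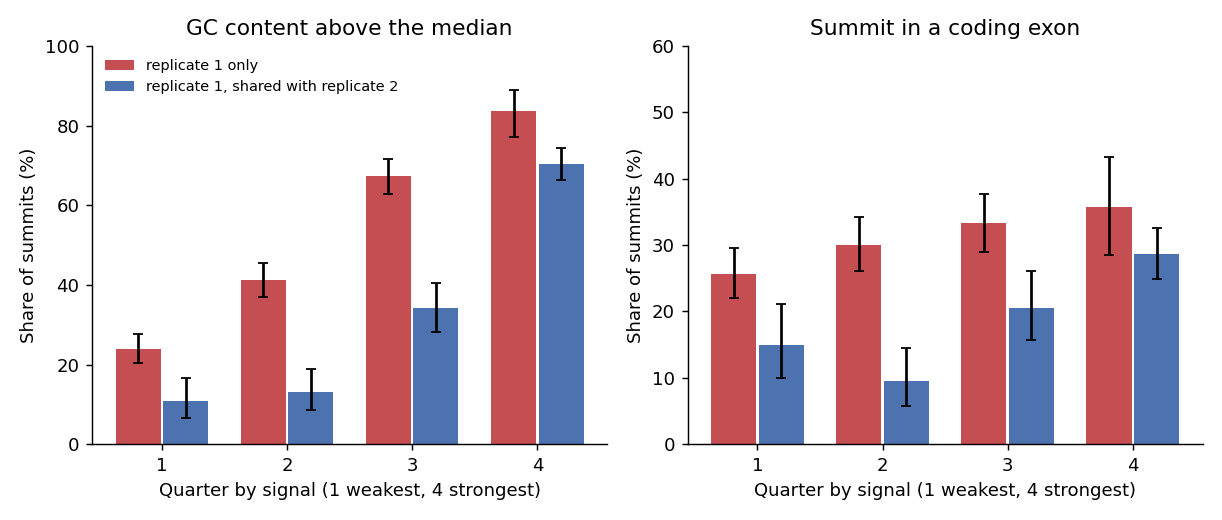
Share of summit windows with GC content above 59.4% (left) and of summits in coding exons (right), in percent with exact 95% intervals over peaks, by signal class of replicate 1, from weakest to strongest. In each of the 4 classes the replicate 1 only share is above the shared one, for example 67.4% against 34.1% for GC content in class 3.

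Within coding sequence the excess of GC was spread over the codon differently in the replicate 1 only and the shared windows. Outside col genes, the coding bases around 448 replicate 1 only summits had 69.7% GC at the first codon position, 57.7% at the second and 51.5% at the third. Around 158 shared summits the values were 76.9%, 69.8% and 42.6%, and over all coding sequences they were 49.9%, 38.9% and 39.7%. Inside col genes the 53 replicate 1 only windows had 83.1%, 75.8% and 25.4%, close to the 84.7%, 77.5% and 29.8% of the 91 shared ones. These shares pool bases over windows and carry no test. The windows were richer than their own genes: of 501 replicate 1 only coding windows, 483 had a higher GC content than the whole coding sequence they lay in, by 8.43 percentage points on average (SD 5.39). Their exons, col genes included, had a median length of 543 bp, against 735 bp around the shared summits. Outside col genes these medians were 518.5 and 611.5 bp. The median over all coding exons was 145 bp, and 251 bp when each exon was weighted by its length, as a randomly placed summit would meet it.

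The EGR core was found at the summit in few peaks of either kind. GTGGGCG or GTGGGTG, on either strand, lay in 70 of the 1695 replicate 1 only windows (4.13%) and in 45 of the 1155 shared ones (3.90%; odds ratio 1.06, 0.714 to 1.59, Fisher's exact p = 0.772), and in 1.11% of all stretches of that length in the nuclear genome. The core was more frequent at the replicate 1 only summits than in the windows 300 bp to the left (28 windows, 1.65%) and to the right (24 windows, 1.42%). On the left 69 peaks had it at the summit alone and 27 in the flank alone (two-sided exact McNemar p = 2.15e-05), and on the right 69 and 23 (p = 1.67e-06, exact). The summit windows are also richer in GC than those flanks, by the values given above, and the part of base composition in this excess was not tested. The 3 strongest with the core were the ZK1073.2 intron, col-97 and the srab-10 promoter, with signals of 257, 204 and 189.

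Other short patterns were commoner than the core. CGCCGC or its reverse complement, chosen after the sequences were seen, lay in 21.1% of replicate 1 only windows and 16.8% of shared windows, against 3.45% and 4.29% of their flanks and 1.51% of genome stretches. A run of 8 or more G or C lay in 6.43% and 4.24% of windows, and in 0.354% and 0.607% of flanks. Repeats were less common in the replicate 1 only windows: soft-masked bases made up 18.98% on average, against 25.5%, and 6.20% of windows against 10.4% were masked throughout.

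Replicate 1 only summits were more often of unique sequence. The central 41 bases occurred more than once in the nuclear genome, on either strand, for 191 of them (11.3%) and for 210 shared summits (18.2%), an odds ratio of 0.572 (0.460 to 0.711, Fisher's exact p = 3.00e-07). More than 10 copies were found for 67 (3.95%) and 113 (9.78%). On the autosomes, 271 of 1428 replicate 1 only summits (18.98%) lay in the middle of 3 equal parts of the chromosome, against 251 of 978 shared ones (25.7%; odds ratio 0.679, 0.556 to 0.829, Fisher's exact p = 1.05e-04). The chromosomes held similar shares, from 15.8% on X to 17.6% on I for the replicate 1 only peaks, and none of the 6 passed the test (exact adjusted p = 0.878 for each, odds ratios from 0.895 to 1.10).

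At the level of genes, 922 of 19973 protein-coding genes (4.62%) had a replicate 1 only summit inside the gene and 514 (2.57%) had one in the promoter window, while shared summits gave 492 (2.46%) and 512 (2.56%). Either kind of place counted, 1232 genes (6.17%) had a replicate 1 only summit, and 145 of these also had a shared one. Genes with a replicate 1 only summit inside were long, with a median of 4.65 kb against 2.03 kb for all genes and 4.43 kb for genes with a shared summit inside. Counts for gene lists are given beside these shares as a description, since no list was tested, and long genes and multi-copy families can differ from the background for reasons of length or sequence alone.

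Collagen genes of the cuticle were divided between both kinds of peak. Of 156 col genes, 56 (35.9%) had a replicate 1 only summit inside and 71 (45.5%) a shared one, against backgrounds of 4.62% and 2.46%, and 6 genes had both kinds inside or in the promoter window. The 65 replicate 1 only summits inside col genes had signals from 9.75 to 352 with a median of 96.5, and the 113 shared ones had a median of 249. Of the 65, 63 lay in coding exons. A ranked region of replicate 2 covered 46 of the 65, with a median signal of 34.1, and the median at covered shared summits was 87.5. The windows had a mean GC content of 60.8% (SD 4.74) and 63.8% (SD 4.92), and 9 of the 65 had further exact copies of the central 41 bases, which leaves their placement among related genes uncertain. The strongest were col-13 (352), col-43 (301.4) and col-179 (259). The adult cuticle collagen gene col-19, named after its value was seen, had a coding exon peak of 145 in replicate 1 and a ranked signal of 41.6 in replicate 2.

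Genes named for the body shapes of their mutants, nearly all collagens of the cuticle, lay more on the replicate 1 only side. Of 21 listed, replicate 1 only summits lay inside 9 (42.9%), against 4.62% of all genes, and shared summits inside 3 (14.3%), against 2.46%. No gene had both. The strongest were dpy-3 (159), bli-2 (126) and rol-6 (122.9), and the rest, named after their values were seen, were bli-6, lon-3, rol-8, dpy-17, sqt-1 and dpy-9, with strongest signals from 51.6 to 118. Shared summits were at sqt-3 (760), dpy-13 (294) and dpy-4 (230). Their GC content ran from 57.4% to 64.4%.

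Basement membrane genes had more replicate 1 only than shared summits, and let-2 held most of them. Of 15 genes, 5 (33.3%) had one inside and 1 (6.67%) had a shared one, with 11 and 1 summits in all. Over all genes the shares were 4.62% and 2.46%. The type IV collagen gene let-2 had 5 inside, all in coding exons, with signals of 134, 73.3, 67.5, 60.2 and 53.2, and a sixth in its promoter window. Ranked regions of replicate 2 covered 3 of these 5 summits, with signals of 29.3, 17.7 and 11.2. The other type IV collagen gene, emb-9, had 2 (62.6 and 55.8), cle-1, which encodes type XVIII collagen, had 1 (96.6), unc-52, which encodes perlecan, had 1 in an intron (77.0), and mig-6, which encodes papilin, had 2 (76.9 and 11.2). The shared one was at the peroxidasin gene pxn-1 (74.0). Few of these levels were high, since all but the strongest at let-2 lay below the shared median of 126.

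Histone genes, whose products package DNA, were on the replicate 1 only side at their promoters. Of 87 genes in the list, 11 (12.6%) had a replicate 1 only promoter summit and 2 (2.30%) a shared one, against 2.57% and 2.56% of all genes. A single summit lay in the promoter windows of both genes of each of 5 pairs: his-1 and his-2 (115), his-59 and his-60 (93.3), his-31 and his-32 (74.2), his-38 and his-40 (60.8), and his-61 and his-62 (55.8). The histone variant gene htz-1 had 53.1. The 11 genes therefore do not stand for 11 separate summits. Shared summits of the list, in promoters or inside genes, were at his-24 (347), hil-4 (202), his-37 (strongest 63.1) and hcp-4 (51.2). The first 2 of these were stronger than any replicate 1 only summit named here. The core histone genes are near-identical copies, but the peaks at his-1 and his-59 had a central 41 bases found once in the genome.

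Ribosomal protein genes stood on the other side. Of 78, 5 (6.41%) had a replicate 1 only promoter summit and 15 (19.2%) a shared one, against 2.57% and 2.56% of all genes. The strongest replicate 1 only summits were at the 5' end of rps-2 (178), in a coding exon of rpl-7A (151), and at the 5' end of rpl-17 (60.8). The mitochondrial respiration list of 41 genes had 0 and 5 (12.2%) with a promoter summit. Its replicate 1 only summits were counted in 3 genes: in a coding exon of nuo-5, a complex I subunit gene (118), and, for ucr-2.2 and cox-6B, in coding exons of col-41 and laf-1. Translation factors, with 39 genes, had 4 (10.3%) and 3 (7.69%) with promoter summits. The strongest replicate 1 only peaks of that list were at eif-3.J (78.1), eif-4A3 (74.4) and eef-1B.1 (71.3). Heat shock and DnaJ genes, 51 in all, had 3 (5.88%) and 5 (9.80%). Replicate 1 only peaks were at dnj-14 (64.4), hsp-4 (58.3, in sequence found 66 times) and dnj-19 (54.7).

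Muscle and neuronal genes were mostly on the replicate 1 only side. Of 64 genes in the muscle list, 19 (29.7%) had a replicate 1 only summit inside or in the promoter window and 7 (10.9%) a shared one, against 6.17% and 4.38% of all genes. The strongest were in coding exons of act-5, an actin of the intestinal brush border (134), and unc-15, which encodes paramyosin (115.7), with dys-1, the dystrophin gene, between them. In the synaptic and neuronal list of 52, the counts were 10 (19.2%) and 2 (3.85%), led by the promoters of cla-1, an active zone protein (167), and syd-9, a zinc finger protein (164), and the 5' end of unc-43, the CaMKII gene (106). The replicate 1 only summits inside muscle genes came to 25.8 for each Mb of gene length, and those inside neuronal genes to 18.01, where all protein-coding genes had 16.9. Ion channel genes, 242 in all, had 16 (6.61%) and 4 (1.65%), the first near the share of all genes and the second below it. The 1270 chemoreceptor genes had 31 (2.44%) and 8 (0.630%), below the shares of all genes for both kinds of peak.

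Genes of developmental timing had both kinds of peak. Of 19 heterochronic genes, which set the order of larval and adult cell fates, 9 (47.4%) had a replicate 1 only summit. A shared summit lay at 9 (47.4%), against 6.17% and 4.38% of all genes in that order, and 6 genes had both. In each of these 6 the replicate 1 only summits were weaker than the gene's strongest shared one, as the selection favours. At lin-42, the homologue of the clock gene Period, the coding exon summit had 202 and the strongest shared summit 845. sea-2, which encodes a zinc finger RNA-binding protein, had 4 from 64.1 to 157 and a strongest shared one of 247. kin-20, a casein kinase 1 gene, had 102 and 98.5 beside 313, lin-14 had 50.2 beside 204, and alg-2, an Argonaute of the microRNA pathway, 79.1 beside 115.5. Without a shared summit were puf-9 (95.2), lin-46 (62.8) and blmp-1 (57.3). Among the 5 genes of the EGR and NAB list, mab-10 alone had a replicate 1 only summit, in a coding exon, with 85.5 in replicate 1 and 31.4 in the ranked list of replicate 2, beside a shared summit of 325.

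Genes of RNA decay carried both kinds of peak, and lists of transcription regulators differed among themselves. In the CCR4-NOT deadenylase and RNA decay list, 7 of 19 genes (36.8%) had a replicate 1 only summit and 5 (26.3%) a shared one. All 5 were among the 7, and the shares over all genes were 6.17% and 4.38%. The strongest were at the decapping gene dcap-1 (147), the exonuclease gene xrn-1 (121.5) and panl-2 (72.1). At ntl-2 a summit of 65.7 lay beside a shared one of 1373. Of 269 nuclear hormone receptor genes, 16 (5.95%) had a replicate 1 only and 10 (3.72%) a shared summit, both a little below the 6.17% and 4.38% of all genes, and the strongest replicate 1 only ones were at nhr-91 (211), nhr-239 (135) and nhr-88 (135), the nhr-239 summit lying in a coding exon of Y54F10AM.11. The list of GATA and other factors, 25 genes, had replicate 1 only summits in introns of daf-16 (137), elt-3 (108) and fkh-9 (67.3). It had no shared summit. That list did not include the GATA factor gene egl-18, which had 5 replicate 1 only summits inside. In the bHLH list of 36 genes, 3 (8.33%) had a replicate 1 only and 3 a shared summit, and in promoter windows 1 and 3. Its strongest replicate 1 only summits were at hlh-30, the homologue of TFEB (98.6), and hif-1 (84.8). In a list of 7 yolk genes, vit-6 (93.9) and vit-2 (91.3) had replicate 1 only summits in coding exons (28.6%, against 4.62% of all genes with one inside). None had a shared summit inside, against 2.46% of all genes, and a list this small can hold none at that share.

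Among further lists, chromatin, kinase and hedgehog related genes had like counts of both kinds, at shares above the 6.17% and 4.38% of all genes. Of 122 chromatin genes, 16 (13.1%) had a replicate 1 only summit and 17 (13.9%) a shared one, and 7 had both. The strongest replicate 1 only summits counted there were 176 in the promoter window of set-16, 127 at hmg-6 and 109 in a coding exon of hda-10, a histone deacetylase gene. Of 105 kinase and phosphodiesterase genes the counts were 13 (12.4%) and 14 (13.3%), with 152 in an intron of cmk-1, a calcium-dependent kinase gene. Of 85 hedgehog and patched related genes they were 8 (9.4%) and 7 (8.2%), led by grl-16 (210), grl-29 (134) and grl-22 (106). For each Mb of gene length, replicate 1 only summits inside chromatin, kinase and hedgehog related genes came to 36.1, 17.45 and 28.2. All protein-coding genes had 16.9, so the kinase list was near that level. Shared summits came to 16.2, 14.96 and 31.3 in the same order, against 9.47 over all genes. Of 365 innate immunity genes the counts differed, with 14 (3.84%) and 3 (0.822%), both below the shares of all genes.

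Some genes gathered several replicate 1 only summits. Of 163 genes with 2 or more inside, 40 had 3 or more, and 154 genes had 2 or more in all and no shared summit. The 3 highest counts, 5 each, were at W05F2.4, let-2 and egl-18, a GATA factor gene. At W05F2.4, 4 of the 5 were intronic, in sequence found 6 to 132 times in the genome. In ego-2 the coding exon summits had 191, 134 and 87.5, and in set-26, which encodes a SET domain protein, the 4 lay in coding exons with signals from 71.4 to 83.1, 3 of them in sequence with a second copy. The autophagy kinase gene unc-51 had 4 from 61.9 to 71.4, rga-4, which encodes a RhoGAP, 4 from 46.7 to 76.4, and pqn-41, whose protein is rich in glutamine and asparagine, 4 from 49.8 to 142 beside 8 shared summits. The 4 counted in dph-2 lay within the overlapping collagen genes col-39 and col-79. Among genes with 2 or more replicate 1 only summits and no shared one, the strongest were at col-43, flcn-1, eat-17, lin-40 and sri-71, and lin-40 had 3 summits along its coding exons, with 246, 120 and 67.3.

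Outside the col genes, 10 coding exon summits stood highest, from 268 at tim-1 to 202 at lin-42. Between them were lin-40 (246), C50F7.5 (231), F08D12.12 (212), the hedgehog-related gene grl-16 (210), Y48G8AL.12 (210), ZC123.1 (209), F23C8.5 (206) and alh-8, an aldehyde dehydrogenase gene (203). Their GC content ran from 55.4% to 73.3%, and the ranked signal of replicate 2 at these summits from 33.1 to 75.7. All 10 were covered in replicate 2 at a lower value than in replicate 1.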

How the data were processed

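The deposited peak lists of 2 replicates, numbered as in the labels, and 2 lists made from both were used. Coordinates are on ce11, per the names of the deposited files. In each list the authors' signal is a peak's strength against control with no stated scaling, the score deposited beside it is whole and at most 1000, and −log10 values deposited with the peaks hold a q-value, or in ranked lists a reproducibility rate (IDR); these were not tested. Thresholded lists were made from alignments, a control and an additional file whose role is not stated, per the deposited read-me files. Which aligner and peak caller made them is not given in the sources used here. Depth is unknown.

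Peaks were split by overlap of 1 bp. Summits sharing an interval were kept as separate peaks (1683 distinct intervals for 1695 peaks). Each summit took 1 class from the Ensembl annotation of WBcel235, promoters first, then untranslated and coding exons, introns, noncoding genes and intergenic DNA, and sequence came from the RefSeq genome. Class, GC content, core, chromosome, position and copy number were compared by two-sided Fisher's exact tests, with Benjamini-Hochberg adjustment over 7 classes and 6 chromosomes and a threshold of 0.05. Stratified odds ratios are Mantel-Haenszel estimates with a normal-approximation interval and a chi-square test. The functions were tested on simulated data. Python 3.11.15, numpy 2.4.6, pandas 2.3.3, scipy 1.17.1 and statsmodels 0.14.6 were used.

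The peaks and the 41 gene lists, which match gene symbols, were chosen with earlier results of these data known. Genes were named by rule: those of the 20 strongest peaks, the 10 genes with most summits, the 3 strongest of each list, the EGR and heterochronic lists in full, the 10 strongest coding exon summits outside col genes, and the 5 strongest genes with 2 or more summits and no shared one. Naming a gene as chosen after its value was seen marks an exception, and the full histone, basement membrane and decay lists are others. Alternatives were other overlap rules, subsets by signal, strata of signal and GC content, windows, promoter definitions and midpoints. Strata of 10 signal classes were chosen after seeing the data.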

Additional observations from a re-analysis of the deposited data

Results flagged for a closer look

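The replicate 1 list held 18 rows on mitochondrial DNA, which the rule left out. Replicate 2 held 24, and 1 of the 18 overlapped none of them.

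Of 3065 nuclear regions in the ranked list of replicate 1 that reached the lowest score of its thresholded list, 215 overlapped no row of that thresholded list, so they could not enter the comparison. Their median signal was 217, above the 70.2 of the replicate 1 only peaks, and 4 of them overlapped no ranked region of replicate 2. Both are signals in data outside the comparison, and control lists were not analysed here.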

How the results depend on the processing

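The 19 tested results were recomputed under 17 other settings, which gave 193 values. Of these 159 kept both direction and side of the threshold, 19 changed direction and 15 came to pass the threshold, and no result that passed was lost. The coding exon odds ratio stayed between 1.34 and 2.16, the promoter one between 0.490 and 0.670, that of the middle part of autosomes between 0.526 and 0.721, and that of further copies between 0.518 and 0.673.

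GC content above the median passed among as many of the strongest peaks as replicate 2 has (1.73), above the median signal (1.76), when shared peaks had to be overlapped over 50% of their length (1.24), at summits not covered in the ranked list of replicate 2 (1.56), without col genes (1.30) and in strata of 4 (3.32) or 10 signal classes (3.75). Introns passed among as many of the strongest (1.46), above the median signal (1.44), at midpoints (1.28), in GC strata (1.30) and at summits not covered (1.43). Exons of noncoding genes passed with a promoter of 500 bp upstream and 100 bp downstream (0.638) and in strata of 4 (0.605) or 10 signal classes (0.596). The subsets and strata by signal use measurements that also set the rule. The cause of these changes was not tested.

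No value that changed direction passed the threshold in either setting. Summits not covered gave 0.736 for 3' UTRs, 1.62 for 5' UTRs, 1.15 for intergenic DNA and 0.887 for chromosome IV. Intergenic DNA gave 1.00 with 50% overlap, 1.10 in GC strata and 1.02 in 10 signal classes. Chromosome III gave 1.05 in both sets of strongest peaks. In 4 classes, 10 classes and without col genes, V gave 1.05, 1.09 and 1.02, X gave 0.963, 0.936 and 0.979, and the core gave 0.988, 0.973 and 0.980. X gave 0.991 with 1 row per interval.

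No value without a replicate exists, since the rule uses both. No paired analysis was possible because the series has 1 group. Without reads, neither depth nor the spread of one site between libraries was measured, and 2 libraries give no replicate of their difference.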
